A study of Mus musculus with 18 samples.

Results

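The genes described here are 34 genes of glycolysis, lactate handling, pyruvate entry into the mitochondria and the hypoxia response, of 55487 genes counted in the deposited tables. They were listed by name for their known roles. The rule uses no measured value, but the list was drawn up with earlier results of these data known. All 34 passed the filter on low counts that left 15318 genes for testing. RNA was sequenced from WEHI-231, a mouse B cell lymphoma line, in 9 groups of 2 libraries each. The groups were parental cells (wild-type for Tfeb) and the TFEB-deficient clones A-59 and B-20, each either unstimulated (0 h) or stimulated through the B cell receptor (BCR) with F(ab')2 fragments against IgM at 10 µg/ml for 6 or 18 h. The study made both clones by electroporation of Cas9 with guide RNAs and single-cell dilution. Each edited line is therefore 1 clone, and no TFEB-intact clone was analysed here, so that loss of TFEB and other differences of a clone from the parental population cannot be told apart. The study describes 2 independent experiments, but the sources used here do not say whether libraries with the same replicate number come from the same experiment.

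The libraries held between 11223588 and 29655262 counts (median 19846544). Tfeb RNA, which checks the genotype labels, lay between 79.2 and 99.9 counts per Mio (CPM, scaled by TMM factors) in the 6 parental libraries, between 25.5 and 40.5 CPM in A-59 and between 34.2 and 54.1 CPM in B-20. The B cell markers Cd79a, Pax5 and Ms4a1 were present in all 18 libraries, with Ms4a1 lowest of these at 43.3 CPM. Among 14 markers of other cell types, S100a8 and Hbb-bs had 0 counts throughout, which allows at most 3 counts a library, and the T cell gene Cd3e had at most 3 counts. Others were counted, with 463 to 3061 counts a library for Pecam1, 209 to 1063 for Epcam and 7 to 502 for Itgam. Of these 14 markers, 6 passed the filter. The summed level of all 14, here without TMM factors, moved with time and genotype. It was 36 to 38.3 CPM in parental cells at 0 h, 90.5 to 90.8 CPM in parental cells at 18 h, 195 to 225 CPM in A-59 at 18 h and 122 to 146 CPM in B-20 at 18 h, and its part in the results was not tested. In 1 library, B-20 replicate 2 at 6 h, the 10 most abundant genes took 6.693% of the counts, against 3.889% to 4.614% in the others, and without it 2 members were called in B-20 against parental cells at 6 h and 0 in the response of B-20 at 6 h, as with it. In bulk RNA, fewer cells with a transcript and less of it per cell cannot be told apart.

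Glycolysis turns glucose into pyruvate in a chain of cytosolic reactions. Pyruvate either enters the mitochondria through the pyruvate dehydrogenase complex or is reduced to lactate, which leaves the cell through monocarboxylate transporters. Hypoxia-inducible factors (HIF), whose alpha subunits are hydroxylated by oxygen-dependent prolyl hydroxylases and then degraded, induce many glycolytic genes when oxygen is low, and activated B lymphocytes are known for raised glucose use. HIF binds a short core in DNA, written ACGTG or GCGTG. TFEB binds an E-box, CACGTG, which holds ACGTG on both strands, so that the letters of the first and the last of these motifs overlap.

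To show which of these letters lie near the start sites of the members, the 250 bases before the RefSeq start (GRCm38.p6, gene strand, the first window listed per gene) were searched on both strands for 32 of the 34 members. Slc2a3 and Bnip3l were not searched. ACGTG or GCGTG was found in 25 of 32 windows (78.1%), against 56.3% of the windows of 10172 tested genes and 38.6% of all 27025 genes with a window. ACGTG alone was found in 46.9% of the members' windows, against 21.6% of the tested genes and 16.6% of all genes, and GCGTG in 53.1%, against 45.4% and 28.2%. CACGTG was found in 5 of 32 windows (15.6%), those of Ldha, Slc16a1, Pfkm, Bnip3 and Hif1a, against 8.25% and 6.05%. The longer motif CACGTGAC was found in 1 of 32 (3.12%), against 3.36% and 1.89%. These members were picked partly as known hypoxia targets, so the shares describe the choice. The window of the lactate dehydrogenase gene Ldhb, which was lower at 18 h in each genotype, is not printed. It held 0 ACGTG, 1 GCGTG and 0 CACGTG. Printed below are the windows of the lactate exporter gene Slc16a1 and of Ldha, which were lower after BCR stimulation in more than 1 genotype. Those of Aldoc and Pdk3, which separated the clones most, are printed as well. Capitals mark ACGTG and GCGTG on either strand (read as CACGT and CACGC from the other).
Slc16a1, chr3:104638414-104638663, + strand: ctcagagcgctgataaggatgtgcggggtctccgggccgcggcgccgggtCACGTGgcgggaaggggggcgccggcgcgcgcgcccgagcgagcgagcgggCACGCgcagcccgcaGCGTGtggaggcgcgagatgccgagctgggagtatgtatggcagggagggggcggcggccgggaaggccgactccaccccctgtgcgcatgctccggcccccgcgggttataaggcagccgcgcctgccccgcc
Ldha, chr7:46845554-46845803, + strand: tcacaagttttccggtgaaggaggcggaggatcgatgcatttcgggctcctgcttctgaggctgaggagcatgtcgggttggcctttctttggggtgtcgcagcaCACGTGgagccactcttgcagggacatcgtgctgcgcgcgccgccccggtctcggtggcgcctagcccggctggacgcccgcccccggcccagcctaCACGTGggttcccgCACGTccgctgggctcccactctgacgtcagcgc
Aldoc, chr11:78322823-78323072, + strand: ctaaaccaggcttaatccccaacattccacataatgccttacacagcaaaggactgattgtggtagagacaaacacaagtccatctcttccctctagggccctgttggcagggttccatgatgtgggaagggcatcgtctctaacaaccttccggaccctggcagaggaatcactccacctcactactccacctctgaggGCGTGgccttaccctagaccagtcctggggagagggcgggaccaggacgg
Pdk3, chrX:93832151-93832400, - strand: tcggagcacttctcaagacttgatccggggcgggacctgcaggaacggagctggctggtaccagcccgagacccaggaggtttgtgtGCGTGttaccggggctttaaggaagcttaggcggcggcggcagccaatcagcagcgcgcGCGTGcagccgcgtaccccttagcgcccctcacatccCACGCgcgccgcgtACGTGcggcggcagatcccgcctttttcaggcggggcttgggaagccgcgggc
A match in these windows is a description of the sequence, and no binding was measured.

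The members differed widely in level. Per kilobase of the longest transcript, the most abundant in untreated parental cells were Aldoa (754 CPM per kb), Ldha (704), the triose phosphate isomerase gene Tpi1 (416), the glucose phosphate isomerase gene Gpi1 (335) and the pyruvate kinase gene Pkm (163). The lowest were Slc16a3 (0.162), the glucose transporter gene Slc2a3 (1.47) and Hk1 (1.9), and the other 26 lay between 3.37 and 68.5 CPM per kb. This order holds for reads as they were counted and for the longest transcript as the length, and another length can change it. Gapdh, Pgk1, Pgam1, Eno1 and Bnip3, whose transcript sequence mostly occurs elsewhere in the genome as well, cannot be placed in it. Of the glucose transporters Slc2a1 (GLUT1) prevailed, at 23 ± 1.67 times the level of Slc2a3 (GLUT3) per kilobase at 0 h and 9.72 ± 0.392 times at 18 h in parental cells. Of the phosphofructokinases the liver-type gene Pfkl prevailed, at 5.64 times the muscle-type Pfkm in both untreated parental libraries and 2.73 ± 0.229 times the platelet-type Pfkp.

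The response to BCR ligation was examined by comparing 6 or 18 h with 0 h within each genotype, with the quasi-likelihood test of edgeR fitted to all 18 libraries. A gene was called at a Benjamini-Hochberg adjusted p (FDR) below 0.01, and was named a differentially expressed gene (DEG) if its log2 fold change also exceeded 1 in either direction. In parental cells at 18 h, 8 of the 34 members were called, 7 lower and 1 higher, and 6 of them were DEGs. The lactate exporter Slc16a1, the hexokinase gene Hk2, Ldha, Ldhb, Pgam1, Eno1 and Gapdh fell, and Pfkfb4 rose. Of all 15318 genes, 16.2% were called lower, 16.4% higher and 10.3% were DEGs in the same comparison, and the members' median log2 change was -0.44, with 25 of 34 below 0, where the median of all genes was 0.043.

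In the clones fewer members passed at 18 h. A-59 had 3 lower and 1 higher, with 2 DEGs, where 17.1%, 14.7% and 8.76% of all genes were called. B-20 had 2 lower and 1 higher, with 1 DEG, where the shares of all genes were 11.4%, 11.4% and 4.80%. Slc16a1 and Ldhb fell and Pfkfb4 rose in all 3 genotypes, and Ldha fell in parental cells and A-59. The members' median change was -0.09 in A-59 and 0.16 for B-20. At 6 h, Pdk3 rose in parental cells (1 of 34 higher against 3.10% of all genes, 0 lower against 4.24%), Slc16a1 fell in A-59 (1 lower against 3.69%, 0 higher against 2.45%), and 0 members passed in B-20, where 0.411% of all genes were called higher and 0.875% lower. DESeq2 also called 0 members in B-20 at 6 h, and 1 member had an unadjusted p under 0.05 there. At 6 h 0 members were DEGs, against 2.62%, 1.39% and 0.385% of all genes in parental cells, A-59 and B-20.

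**Figure D1:**
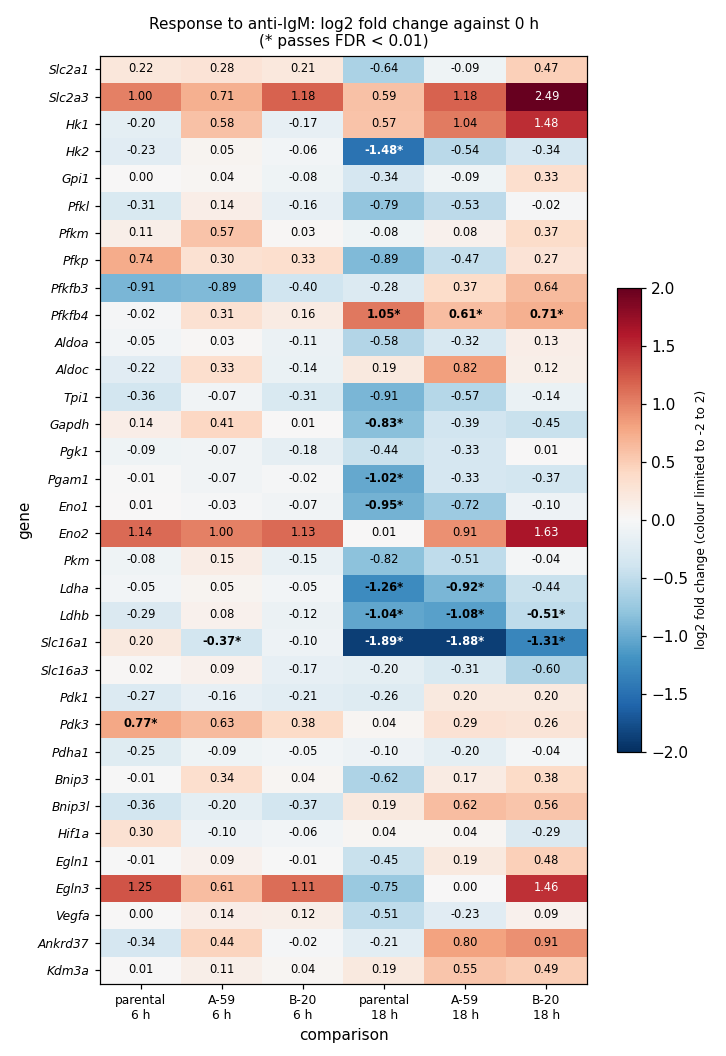
Log2 fold change of each of the 34 genes (rows) at 6 h and 18 h against 0 h in parental cells, A-59 and B-20 (columns), from the edgeR fit to all 18 libraries. Asterisks mark FDR below 0.01, the colour scale ends at -2 and 2, and the 8 calls in parental cells at 18 h are mostly blue, with Slc16a1 lowest at -1.89 and Pfkfb4 at 1.05.

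Slc16a1, a gene of lactate handling, had the largest fall of the 34 members at 18 h in each genotype. Slc16a1 encodes MCT1, a proton-coupled transporter of lactate and pyruvate. It stood at 240 and 238 CPM in the untreated parental libraries, at 277 and 270 CPM after 6 h and at 63.6 and 64.7 CPM after 18 h. In A-59 it went from 176 and 198 CPM to 139 and 149 and then to 51.9 and 49.6 CPM, and in B-20 from 248 and 241 CPM to 238 and 219 and then to 90 and 107 CPM. The 18 h libraries thus lay below all others of their genotype without overlap. The log2 change at 18 h was -1.89 ± 0.09 (SE, n = 2 against 2, FDR = 2.10e-10) in parental cells, -1.88 ± 0.09 (FDR = 2.53e-10) in A-59 and -1.31 ± 0.09 (FDR = 4.63e-08) in B-20. At 6 h A-59 alone passed, with -0.37 ± 0.09 (FDR = 0.00965), and the difference of its response from the parental one at 6 h, -0.57 ± 0.13, missed the threshold (FDR = 0.0227).

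Ldha encodes the muscle-type subunit of lactate dehydrogenase, which favours the reduction of pyruvate to lactate. It stood at 2250 and 2200 CPM in untreated parental libraries, 2200 and 2110 CPM after 6 h and 895 and 961 CPM after 18 h. In A-59 the values were 2420 and 2110, then 2570 and 2100, then 1390 and 1010 CPM, and in B-20 they were 2080 and 1800, then 1860 and 1880, then 1690 and 1170 CPM. The 18 h libraries were lowest in every genotype, with the widest gap in parental cells. The log2 change at 18 h was -1.26 ± 0.16 (FDR = 1.21e-05) in parental cells and -0.92 ± 0.16 (FDR = 2.57e-04) in A-59, whereas -0.44 ± 0.16 in B-20 was not called (FDR = 0.0433). Of the windows of 50 bases, the read length, in the Ldha transcript, 33.79% also occur elsewhere in the genome.

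Ldhb encodes the heart-type subunit. It stood at 70.8 and 75 CPM in untreated parental libraries and at 36 and 34.7 CPM after 18 h, with 63.2 and 56.2 CPM after 6 h. A-59 went from 74.2 and 66.5 CPM over 88.9 and 59.8 CPM to 33 and 33.4 CPM, and B-20 from 83.5 and 85.2 CPM over 75.8 and 79.4 CPM to 55.3 and 63.1 CPM. The 18 h libraries again lay below the 0 h libraries in each genotype, and those of B-20 stayed above those of the other genotypes. The log2 change was -1.04 ± 0.14 (FDR = 5.95e-06), -1.08 ± 0.14 (FDR = 4.14e-06) and -0.51 ± 0.13 (FDR = 0.00536). Slc16a3, the gene of the exporter MCT4, was hardly expressed, with 17 to 46 counts a library. Per kilobase of transcript, Slc16a1 lay 310 ± 41.3 times (SD, n = 2) above Slc16a3 in untreated parental cells, and Ldha lay 25.5 ± 1.43 times above Ldhb.

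At the entry of the pathway, Hk2 encodes a hexokinase bound to mitochondria, which traps glucose in the cell as glucose 6-phosphate. It stood at 254 and 220 CPM in untreated parental libraries, 206 and 199 CPM after 6 h and 90.2 and 80.1 CPM after 18 h. In A-59 it was at 285 and 197, then 311 and 187, then 200 and 130 CPM, and in B-20 at 266 and 186, then 259 and 174, then 230 and 128 CPM. The parental 18 h libraries were below every other library, while in each clone replicate 1 at 18 h lay above replicate 2 at 0 h. The parental change of -1.48 ± 0.37 passed narrowly (FDR = 0.00886) and lost the call when any 1 of the 4 libraries compared was left out (FDR between 0.0234 and 0.0672), with log2 values of -1.61 to -1.40. In the clones the change was -0.54 ± 0.36 in A-59 and -0.34 ± 0.36 for B-20, and neither was called. Hk1, the housekeeping hexokinase, was low, and the ratio of Hk2 to Hk1 per kilobase was 16 ± 1.39 in untreated and 3.85 ± 0.111 in 18 h parental cells, 15.1 ± 0.433 and 5.16 ± 0.809 in A-59, and 41.5 ± 1.5 and 12.4 ± 1.72 in B-20. With exonic length in place of the longest transcript these ratios were higher, 29.9 and 7.2 in parental cells, 28.3 and 9.65 in A-59, and 77.6 and 23.1 in B-20. Hk2 was thus the main hexokinase transcript of the pair in each group shown.

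Pfkfb4 encodes a bifunctional enzyme that sets fructose 2,6-bisphosphate, the activator of phosphofructokinase. It was the only member that rose at 18 h in parental cells. It stood at 24.3 and 25.9 CPM at 0 h, 25.2 and 24.4 CPM after 6 h and 50.4 and 53.3 CPM after 18 h. In A-59 the values were 37.1 and 33, then 45.6 and 41.5, then 56.8 and 50.5 CPM, and in B-20 they were 24.2 and 23.9, then 25.5 and 28.3, then 39 and 39.7 CPM. The 18 h libraries were highest in each genotype and did not overlap the 0 h libraries. The log2 change was 1.05 ± 0.10 (FDR = 1.49e-07) in parental cells, 0.61 ± 0.10 (FDR = 5.35e-05) in A-59 and 0.71 ± 0.10 (FDR = 3.38e-05) in B-20. Its paralogue Pfkfb3 was not called, with -0.28 ± 0.37 in parental cells at 18 h, and the ratio of Pfkfb3 to Pfkfb4 per kilobase was 7.06 ± 0.946 at 0 h and 2.82 ± 0.0606 at 18 h in those cells.

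**Figure D2:**
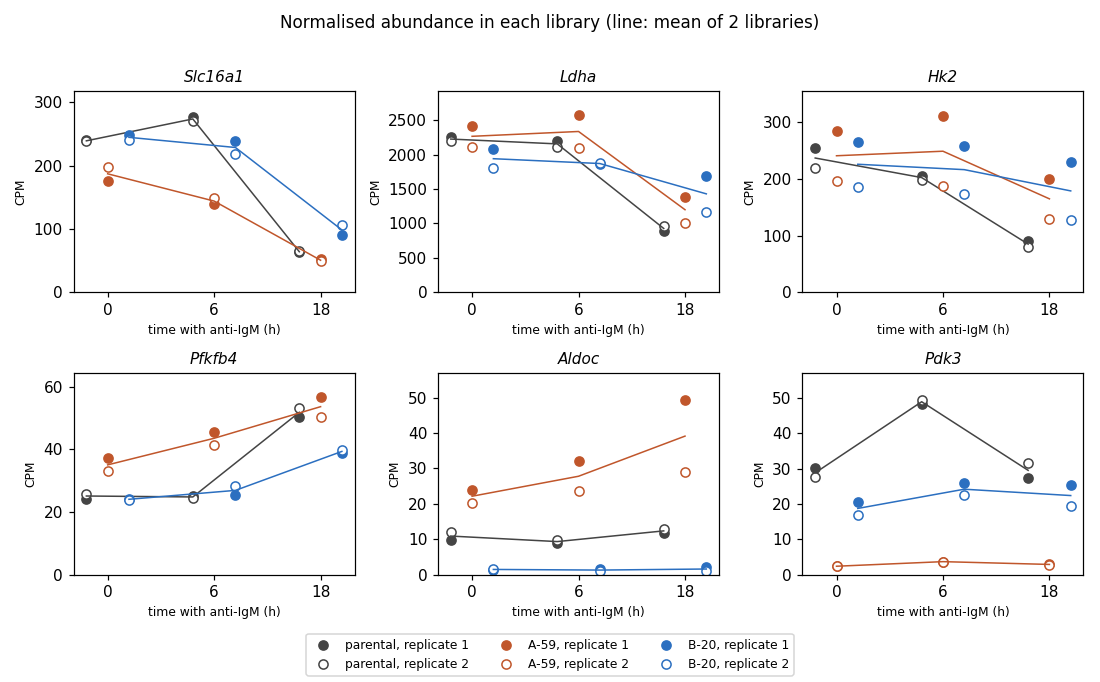
CPM of 6 genes (panels) in every library by hours with anti-IgM, with filled points for replicate 1, open points for replicate 2 and lines through the means of 2 libraries. Slc16a1 drops at 18 h in all 3 genotypes, Pfkfb4 climbs, Aldoc is high in A-59 and near 0 for B-20, and Pdk3 is near 0 in A-59.

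In the lower part of glycolysis Pgam1, Eno1 and Gapdh fell in parental cells at 18 h. Pgam1 encodes phosphoglycerate mutase. It had 19.6 and 16 CPM at 0 h, 18.2 and 17.1 CPM after 6 h and 7.94 and 9.39 CPM after 18 h in parental cells. In A-59 the values were 23 and 18.1, then 17.9 and 21.6, then 19.2 and 13.6 CPM, and in B-20 they were 21.8 and 19.4, then 21.6 and 19.1, then 19.4 and 12.3 CPM. The parental 18 h libraries were the lowest of the 18. The parental log2 change was -1.02 ± 0.22 (FDR = 9.07e-04), beside -0.83 ± 0.17 (FDR = 6.49e-04) for the dehydrogenase gene Gapdh and -0.95 ± 0.23 (FDR = 0.00492) for the enolase gene Eno1. Without replicate 1 of the parental 0 h or 18 h group the Pgam1 change of -0.90 or -0.96 was not called (FDR = 0.0122 and 0.0106), nor was the Gapdh change of -0.64 or -0.66 (FDR = 0.0119 and 0.0103). The Eno1 call was lost when any 1 of the 4 libraries compared was left out, with log2 values of -1.13 to -0.85 (FDR between 0.0135 and 0.041).

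These genes are uncertain as single loci. Of all 50-base windows of the canonical transcript, 93.6% of Pgam1, 92.91% of Pgk1, 85.63% of Gapdh, 65.87% of Bnip3 and 63.64% of Eno1 also occur elsewhere in GRCm39, and 40.23% of Pkm. How the counting treated reads with several matches is not given in the sources used here. Gapdh was counted at 67.1 and 50.7 CPM in untreated parental libraries, where the aldolase gene Aldoa, with 15.18% of such windows, stood at 2150 and 2210 CPM. Slc16a1, Hk2, Pfkfb4 and Aldoc had 0 such windows, and Pdk3 had 1.45%. The spans of 6 members overlap another protein-coding gene (Pfkm with Senp1, Pfkp with Pitrm1, Tpi1 with Spsb2, Slc16a3 with Csnk1d, Pdha1 with Map3k15 and Ankrd37 with Ufsp2), and since the libraries were not stranded, reads from opposite strands could not be separated.

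**Figure D3:**
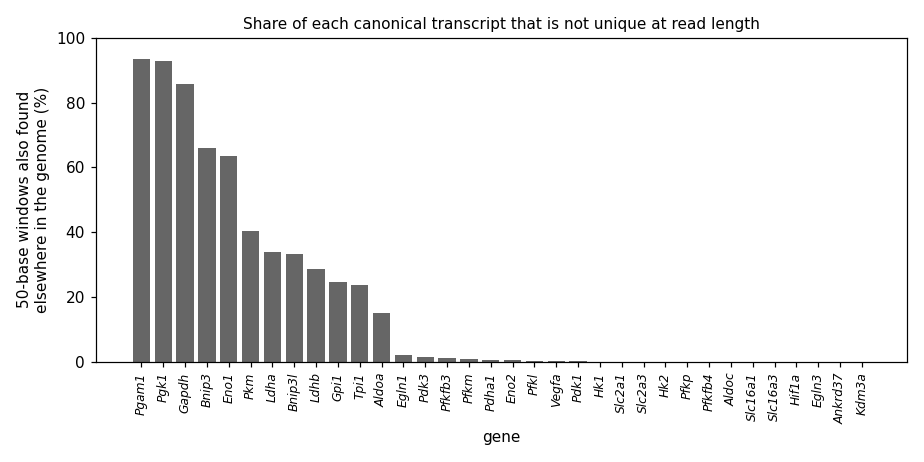
Share of the 50-base windows of each gene's canonical transcript that are found again elsewhere in the mouse genome (GRCm39), as bars from 0 to 100%. Pgam1, Pgk1 and Gapdh are above 85%, Ldha is at 33.79%, and most of the 34 genes are at or near 0.

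The other members were below the threshold in parental cells at 18 h, where the whole set ranged from -1.89 to 1.05. Among them Tpi1, the triose phosphate isomerase, was at -0.91, the platelet-type phosphofructokinase Pfkp at -0.89, the pyruvate kinase gene Pkm at -0.82, the liver-type phosphofructokinase Pfkl at -0.79, the glucose transporter Slc2a1 (GLUT1) at -0.64 and Aldoa at -0.58. How many members passed depended on which libraries set the spread. With only the 4 parental libraries at 0 h and 18 h in the fit, 22 of 34 were called, 19 lower and 3 higher, where 23.4% and 20.9% of 14188 genes were called. With all groups in the fit but any 1 of these 4 parental libraries left out, fewer members were called than with all 18 libraries. The share of all genes in those fits is not given. The 3 called lower in every genotype or in parental cells and A-59, Slc16a1, Ldhb and Ldha, kept their direction and their calls in those comparisons without any 1 library, except Ldhb in B-20, which missed the threshold without either 0 h library or without replicate 1 at 18 h (FDR = 0.0202 to 0.0612).

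The glucose transporter gene Slc2a3 (GLUT3), Hk1, the neuronal enolase gene Eno2 and Egln3 had the largest positive values in B-20 at 18 h, at 2.49 ± 0.85, 1.48 ± 0.47, 1.63 ± 0.66 and 1.46 ± 0.83, and 0 of these 4 were called. Their libraries differed widely, Slc2a3 with 17.5 and 3.51 CPM and Egln3 with 102 and 21.3 CPM. The difference lay between the 2 libraries of the group and extended to most members.

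Some members also had wide values in other comparisons without being called there. At 6 h Egln3 and Eno2 were at 1.25 ± 0.82 and 1.14 ± 0.60 in parental cells and Pfkfb3 was at -0.91 ± 0.37. In untreated B-20 against parental cells Slc2a3 was at -2.30 ± 0.86 (2.68 and 1.12 CPM against 10.3 and 8.07 CPM), Hk1 at -1.45 ± 0.48 and Eno2 at -1.37 ± 0.66. The libraries of these groups did not overlap for Slc2a3, but the standard errors from the shared fit were wide.

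In both clones replicate 1 stood above replicate 2 for most members at each time. In A-59 this was so for 28, 26 and 31 of 34 members at 0, 6 and 18 h, with median log2 differences of 0.28, 0.30 and 0.48. In B-20 it was so for 31, 28 and 29 of 34, with medians of 0.37, 0.22 and 0.72. In parental cells it was so for 22, 16 and 8 of 34, with medians of 0.03, -0.01 and -0.09, and over all genes tested the median lay between -0.03 and 0.01 in the 9 groups. The prolyl hydroxylase gene Egln3, a HIF target itself, was the member furthest above 0 in 5 of the 9 groups and reached 2.24 in B-20 at 18 h. The 34 members took 1.127% of all counts in B-20 replicate 1 at 18 h and 0.674% in replicate 2, against 0.627% and 0.659% in the parental libraries at that time. Both B-20 libraries were deep (27472928 and 26984977 counts), and mitochondrially encoded genes took 1.594% and 1.803% of them.

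**Figure D4:**
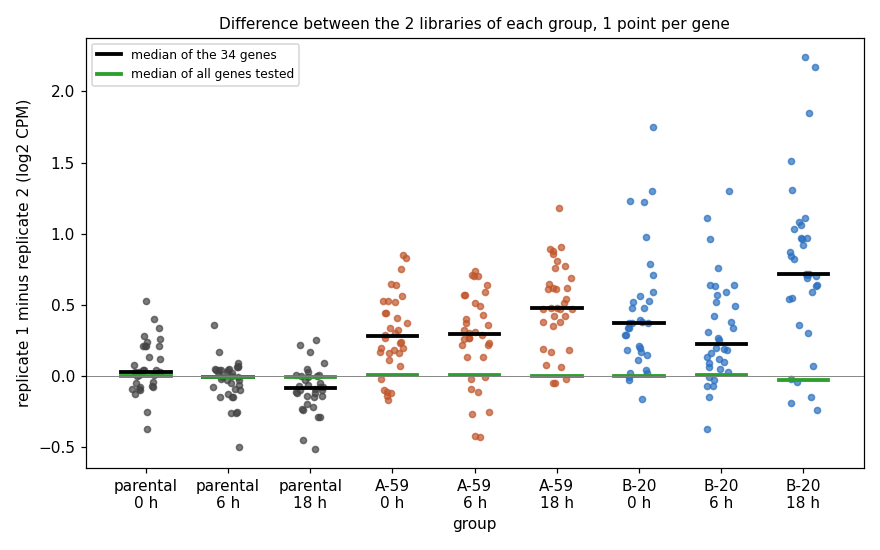
Replicate 1 minus replicate 2 in log2 CPM for each of the 34 genes (points) in the 9 groups, with black lines at the members' medians and green lines at the medians of all genes tested. The members' median is 0.22 to 0.72 in the clones and -0.09 to 0.03 in parental cells, while the median of all genes stays near 0.

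Taken separately by replicate number, the median change of the members at 18 h was -0.55 (replicate 1) and -0.37 (replicate 2) in parental cells, -0.06 and -0.20 in A-59, and 0.33 and -0.02 in B-20. The lower values in parental cells were thus present in both libraries. For the clones against parental cells at 18 h, the medians were 0.71 and 0.08 in A-59 and 0.84 and -0.05 for B-20, so that the higher levels came mainly from replicate 1.

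The clones were next compared with parental cells at each time. Pdk3 was lower in both clones and Aldoc was higher in A-59 and lower for B-20, while most other members stayed below the threshold. In A-59 the calls were 1 higher and 2 lower at 0 h (5.09% and 4.47% of all genes), 2 higher and 3 lower at 6 h (11.4% and 11.3%), and 2 higher and 1 lower at 18 h (4.75% and 5.68%). In B-20 they were 0 higher and 2 lower at 0 h (4.03% and 6.66%), 0 higher and 2 lower at 6 h (6.23% and 8.0%), and 5 higher and 2 lower at 18 h (5.70% and 8.55%). DEGs numbered 1, 2 and 2 at 0, 6 and 18 h in A-59, against 4.78%, 7.91% and 4.92% of all genes, and 1, 2 and 1 in B-20, against 5.16%, 6.73% and 6.21%. The members' median log2 difference was 0.05, 0.17 and 0.42 in A-59 and -0.21, -0.21 and 0.49 for B-20. Both clones were set against the same parental libraries, so their values are not independent of each other. Set directly against A-59, B-20 differed in 4 members at 0 h (8.41% of all genes were called), 5 at 6 h (18.7%) and 6 at 18 h (16.2%).

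**Figure D5:**
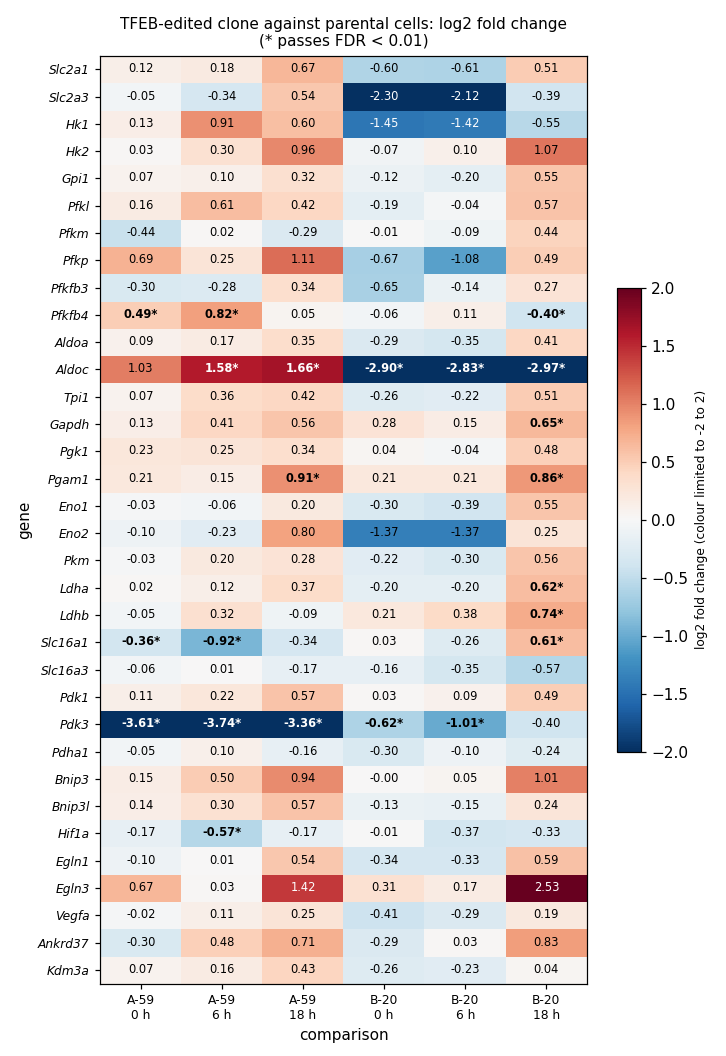
Log2 fold change of each of the 34 genes (rows) in A-59 and B-20 against parental cells at 0, 6 and 18 h (columns), with asterisks at FDR below 0.01 and a colour scale that ends at -2 and 2. Pdk3 is at -3.74 to -3.36 in A-59, and Aldoc is at -2.97 to -2.83 in B-20 and 1.03 to 1.66 in A-59.

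Pdk3 encodes a pyruvate dehydrogenase kinase, which inactivates the pyruvate dehydrogenase complex by phosphorylation. In parental libraries it had 30.1 and 27.6 CPM at 0 h, 48.5 and 49.5 CPM after 6 h and 27.5 and 31.6 CPM after 18 h. In A-59 it had 2.34 and 2.38, then 3.64 and 3.68, then 3.09 and 2.65 CPM, and in B-20 20.7 and 16.8, then 25.9 and 22.5, then 25.3 and 19.5 CPM. All A-59 libraries lay far below all others, and the B-20 libraries lay below the parental libraries at each time point. The log2 difference of A-59 from parental cells was -3.61 ± 0.16 (FDR = 1.36e-11, 12.2-fold lower) at 0 h, -3.74 ± 0.16 (FDR = 3.95e-12) at 6 h and -3.36 ± 0.17 (FDR = 5.21e-11) at 18 h. In B-20 it was -0.62 ± 0.14 (FDR = 0.00283) at 0 h and -1.01 ± 0.13 (FDR = 1.04e-05) at 6 h, and -0.40 ± 0.13 at 18 h was not called (FDR = 0.0337). The call at 0 h in B-20 was lost without either parental 0 h library (FDR = 0.0356 and 0.0105) or without B-20 replicate 2 (FDR = 0.0695).

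Pdk3 was also the member that rose early. Its change at 6 h was 0.77 ± 0.13 (FDR = 3.76e-04) in parental cells, 0.63 in A-59 and 0.38 for B-20, the last 2 not called, and the interaction was -0.13 ± 0.24 for A-59 and -0.39 ± 0.19 for B-20, neither past the threshold. The parental call was lost without replicate 2 at 0 h (0.70, FDR = 0.0142). Pdk1, the kinase gene of the same family that HIF induces, was not called in any of these comparisons, and per kilobase it lay 5.93 ± 0.267 times above Pdk3 in untreated parental cells, 78.3 ± 7.14 times in A-59 and 9.32 ± 0.175 times for B-20. Pdha1, the catalytic subunit of the complex, was likewise never called and ranged from 175 to 239 CPM.

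Aldoc encodes the brain-type aldolase, which cleaves fructose 1,6-bisphosphate. Parental libraries held 9.87 and 11.9 CPM at 0 h, 8.87 and 9.78 CPM after 6 h and 11.7 and 13 CPM after 18 h. A-59 libraries held 24 and 20.3, then 32 and 23.6, then 49.3 and 29 CPM, and B-20 libraries 1.34 and 1.55, then 1.62 and 0.914, then 2.24 and 0.895 CPM. The 3 genotypes did not overlap at any time. Against parental cells the log2 difference of A-59 was 1.03 at 0 h, which was not called, 1.58 ± 0.27 (FDR = 2.81e-04) at 6 h and 1.66 ± 0.27 (FDR = 3.77e-04) at 18 h. In B-20 it was -2.90 ± 0.38 (FDR = 4.99e-05), -2.83 ± 0.38 (FDR = 4.91e-05) and -2.97 ± 0.34 (FDR = 1.10e-05). Without A-59 replicate 1 the difference at 6 h was 1.33 and not called (FDR = 0.0118). Aldoa, the main aldolase transcript, lay 225 ± 25.3 times above Aldoc per kilobase in untreated parental cells, 117 ± 1.54 times in A-59 and 1390 ± 275 times for B-20.

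Slc16a1 and Pfkfb4 were called in A-59 at 0 and 6 h and, in the opposite direction, in B-20 at 18 h. Slc16a1 was lower in A-59 at 0 h (-0.36 ± 0.09, FDR = 0.00892) and 6 h (-0.92 ± 0.09, FDR = 2.47e-07), and higher in B-20 at 18 h (0.61 ± 0.09, FDR = 6.25e-05). Its A-59 call at 0 h was lost without any 1 of the 4 libraries (FDR = 0.012 to 0.145). Pfkfb4 was higher in A-59 at 0 h (0.49 ± 0.10, FDR = 0.00157) and 6 h (0.82 ± 0.10, FDR = 3.62e-06) and lower in B-20 at 18 h (-0.40 ± 0.10, FDR = 0.00502). The B-20 call was lost without any 1 library (FDR = 0.0214 to 0.0721), and the A-59 call at 0 h without replicate 1 of either group (FDR = 0.0353 and 0.0434). At 6 h B-20 lay on the same side of parental cells as A-59, with -0.26 ± 0.09 for Slc16a1 (FDR = 0.0413) and 0.11 ± 0.10 for Pfkfb4 (FDR = 0.459), neither called. At 18 h A-59 was at -0.34 ± 0.09 for Slc16a1 (FDR = 0.017) and 0.05 ± 0.10 for Pfkfb4 (FDR = 0.8), and neither was called.

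At 18 h B-20 was also higher than parental cells for Pgam1 (0.86 ± 0.22, FDR = 0.00731), Ldhb (0.74 ± 0.14, FDR = 4.85e-04), Gapdh (0.65 ± 0.17, FDR = 0.00843) and Ldha (0.62 ± 0.16, FDR = 0.00999). Pgam1 was higher in A-59 as well (0.91 ± 0.22, FDR = 0.00736). Each of these 5 calls was lost without at least 1 of the 4 libraries compared (FDR between 0.0135 and 0.148). How many members were called in B-20 against parental cells at 18 h also depended on which library was left out. Those counts are given below with the other settings.

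Hif1a encodes the oxygen-regulated alpha subunit of HIF, whose level is set mainly after translation. Its RNA lay at 150 and 155 CPM in parental libraries at 0 h, 179 and 199 CPM after 6 h and 153 and 160 CPM after 18 h. In A-59 it lay at 129 and 143, then 109 and 145, then 143 and 136 CPM, and in B-20 at 158 and 147, then 151 and 142, then 123 and 126 CPM. All libraries were within 109 to 199 CPM, with the parental 6 h libraries on top. It was lower in A-59 than in parental cells at 6 h (-0.57 ± 0.11, FDR = 4.57e-04), a call lost without parental replicate 2 (-0.50, FDR = 0.0111), and it passed in 0 of the 6 responses to BCR ligation. The other members of the oxygen-sensing arm, the prolyl hydroxylase genes Egln1 and Egln3, and the HIF targets Vegfa (an angiogenic growth factor), Bnip3 and Bnip3l (mitophagy receptors), Ankrd37 (an ankyrin-repeat protein) and Kdm3a (a histone demethylase) were called in 0 of the 12 comparisons of time or clone. Egln3 reached 2.53 ± 0.90 in B-20 against parental cells at 18 h (FDR = 0.0749).

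Whether the clones responded differently from parental cells was tested directly, as the difference of the 18 h or 6 h changes. No member passed in edgeR in any of the 4 tests, where 0.646% and 0.0392% of all genes passed for A-59 at 6 h and 18 h and 0.183% and 0.222% for B-20. At an unadjusted p under 0.05 there were 3, 2, 2 and 9 members, without a share of all genes to set them against. DESeq2 called 1, 0, 0 and 1, where 2.08%, 0.271%, 0.644% and 1.05% of all genes passed. With a block for the replicate number within each genotype, a fit chosen after seeing the data, edgeR called 10 members for B-20 at 18 h, all higher, where 1.58% of all genes passed, and 1 member each for A-59 at 6 h and 18 h. Among the 10 were Slc2a1, Ldha, Slc16a1 and Egln3, with differences of 1.07 ± 0.13, 0.81 ± 0.14, 0.58 ± 0.12 and 2.08 ± 0.33. The median difference of the 18 h responses was 0.36 in A-59 and 0.69 for B-20, with 30 of 34 members above 0 in each, against -0.028 and 0.011 over all genes, and both values use the same parental libraries. In the fit without a block, for Slc16a1 the 18 h response of B-20 differed from the parental one by 0.58 ± 0.13 (FDR = 0.0454), for Ldha by 0.82 ± 0.23 (FDR = 0.111), for Hk2 by 1.14 ± 0.52 (FDR = 0.375) and for Ldhb by 0.53 ± 0.19 (FDR = 0.21). For A-59 the corresponding values were 0.02 ± 0.13, 0.35 ± 0.23, 0.93 ± 0.52 and -0.04 ± 0.19. A miss of the threshold with these errors does not show that the responses were alike.

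Other genes of the same pathways were read from lists of the wider pathway. In the pentose phosphate pathway, which branches off at glucose 6-phosphate, 5 of 10 genes fell at 18 h in parental cells, 6 in A-59 and 6 for B-20, and 0 rose. Among 12 tested genes of pyruvate entry into mitochondria, 5, 6 and 4 fell at 18 h and 1 rose in each genotype. The gene that rose was Pdk2, a relative of Pdk3, with log2 changes of 1.18 ± 0.21, 1.09 ± 0.21 and 1.20 ± 0.23, from 6.33 and 6.91 CPM to 15.1 and 15 CPM in parental libraries. Read against the background of 11.4% to 17.1% of all genes called in a direction at 18 h, these shares are described here without a test. In the clones against parental cells, at most 2 pentose phosphate genes and at most 4 of pyruvate entry were called in 1 direction. Both of these counts were lower calls in A-59 at 6 h, where 11.3% of all genes were lower.

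Of 19 tested further isoforms and sugar transporters (30 listed), 5 rose and 4 fell at 18 h in parental cells, 5 and 5 in A-59, and 4 and 4 in B-20. The shares of all genes were 16.4% and 16.2%, 14.7% and 17.1%, and 11.4% and 11.4%. Slc2a8, the gene of an intracellular hexose transporter, rose by 1.02 ± 0.19 in parental cells, 1.62 ± 0.20 in A-59 and 1.12 ± 0.22 for B-20. Against parental cells it was lower in B-20 at 0, 6 and 18 h (-1.14 ± 0.22, -1.02 ± 0.21 and -1.05 ± 0.19). In A-59 it was lower at 0 h (-0.95 ± 0.20) and not called at 6 h (-0.08 ± 0.19) or 18 h (-0.35 ± 0.18). Pgam2, the muscle-type mutase gene, rose by 1.51 ± 0.16, 1.61 ± 0.16 and 1.22 ± 0.17 while Pgam1 was lower in parental cells, from 4.45 and 5.42 CPM to 13.4 and 14.6 CPM there. Bpgm, which makes 2,3-bisphosphoglycerate, was higher in both untreated clones, by 1.32 ± 0.20 in A-59 and 1.31 ± 0.20 for B-20, at 13 to 16.2 CPM against 5.82 and 5.96 CPM.

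Among 34 tested further HIF targets, 6 rose and 6 fell at 18 h in parental cells, 7 and 2 in A-59, and 5 and 2 in B-20. The shares of all genes were 16.4% and 16.2%, 14.7% and 17.1%, and 11.4% and 11.4%. Ppfia4, a liprin gene, rose in all 3 genotypes by 1.77 ± 0.18, 2.24 ± 0.21 and 1.31 ± 0.21. In the clones against parental cells 3, 5 and 2 of these targets were lower in A-59 at 0, 6 and 18 h, as were 3, 7 and 4 of them in B-20, where 4.47%, 11.3% and 5.68% of all genes were lower in A-59 and 6.66%, 8.0% and 8.55% in B-20. Higher were 2, 1 and 1 of them in A-59, against 5.09%, 11.4% and 4.75% of all genes, and 0, 2 and 2 for B-20, against 4.03%, 6.23% and 5.70%. The transcriptional repressor gene Bhlhe40 was lower at each time, by -2.64 ± 0.24 in A-59 and -2.78 ± 0.25 for B-20 at 6 h, with 29.8 and 35.1 CPM in parental cells and 3.66 to 5.98 CPM in the clones. The carbonic anhydrase gene Car12 was at 28.8 and 25.6 CPM in untreated parental libraries and at 3.05 to 5.89 CPM in the untreated clones, differences of -2.99 ± 0.36 and -2.53 ± 0.37. The adrenomedullin gene Adm (-1.90 ± 0.46 and -2.06 ± 0.47) and Rragd, a GTPase gene of amino acid sensing at no more than 2.5 CPM (-2.26 ± 0.49 and -2.38 ± 0.52), were lower in both clones at 6 h.

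Of 11 tested further HIF regulators, 2 rose and 2 fell at 18 h in parental cells, 1 and 2 in A-59, and 1 and 2 in B-20. Of all genes, 16.4% rose and 16.2% fell in parental cells, 14.7% and 17.1% in A-59, and 11.4% and 11.4% in B-20. Hif3a, whose products include inhibitors of HIF, was higher in A-59 at each time, by 1.39 ± 0.24, 1.47 ± 0.23 and 1.89 ± 0.25, and in B-20 at 6 h (1.01 ± 0.23) and 18 h (1.52 ± 0.25). Its level was 9.19 to 13.6 CPM in parental libraries and 15 to 43.4 CPM in the clones. Of 4 tested genes around Mlx, which sense glucose-derived sugar phosphates or respond to them, 1 rose at 18 h in each genotype (16.4%, 14.7% and 11.4% of all genes). This was Txnip, an inhibitor of glucose uptake, chosen for mention after its values were seen, with 1.17 ± 0.19, 0.98 ± 0.19 and 0.75 ± 0.20.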

How the data were processed

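RNA of 18 WEHI-231 libraries was measured by non-stranded single-end mRNA sequencing. The authors deposited raw read counts for each Ensembl gene, with no normalization applied. The submitters' processing notes name bcl2fastq 2.20.0.422, STAR 2.5, featureCounts 1.5.0-p1 and GRCm38. Options for reads with several matches are not given in the sources used here. Library totals ranged from 11223588 to 29655262 counts, and a count of 0 allows up to 3 counts, for counting error only. The tables hold 0 entries that name no gene.

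Libraries were grouped by their labels. In R 4.3.3, edgeR 4.0.16 was run with filterByExpr, TMM scaling and robust quasi-likelihood dispersion, with 1 mean per group over all 18 libraries and without a replicate block. P-values were adjusted over 15318 genes within each of 19 comparisons (Benjamini-Hochberg). CPM are TMM-scaled, differences between replicates used a prior of 0.5, and isoform ratios used CPM per kilobase of the longest transcript in GENCODE vM39, which matched 93.2% of gene identifiers. The alternatives were DESeq2 1.42.0, its size factors, no filter, a filter at 10 counts per library, a fit to the compared libraries alone, a replicate block, each library left out, a loess correction for GC content (span 0.5), other thresholds and exonic length. Whether replicate numbers pair libraries was checked over 36 pairs of groups. On simulated counts for parental cells at 18 h against 0 h, with 14824 genes in the fit, edgeR called 171 of 200 genes with a log2 change of 1 (85.5%) and 3 unchanged genes. The changed genes were drawn from the better-counted genes. Noise was independent between genes, with no shift shared between replicates as seen for the members. The share that would be recovered among the members was therefore not simulated.

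The members and lists were chosen with earlier results of these data known. Values in every library are given for Hif1a and for each member that was a DEG in at least 1 of the 12 comparisons of time or clone. List genes are named where they were DEGs at 1 time in both clones with 1 direction, or at 18 h in all 3 genotypes, with at most 5 a list. Pfkfb2, Gys1 and Gbe1 stand in both the isoform list and the list of HIF targets. Promoter sequences are those of RefSeq. The values of the study's own comparisons were not used.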

Additional observations from a re-analysis of the deposited data

Results flagged for a closer look

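The clones differed from each other in 4 members at 0 h, 5 at 6 h and 6 at 18 h by the direct edgeR comparison of B-20 with A-59, where 8.41%, 18.7% and 16.2% of all genes were called, so the number of members was not large against the background. Pdk3 was higher in B-20, by 2.99, 2.73 and 2.96 on the log2 scale at 0, 6 and 18 h (FDR = 4.71e-10, 6.38e-10 and 3.28e-10). Aldoc was lower, with -3.93, -4.41 and -4.63 (FDR = 1.91e-06, 3.53e-07 and 6.35e-08). Slc16a1 was higher, by 0.39, 0.67 and 0.95 (FDR = 0.0054, 2.37e-05 and 4.72e-07), and Pfkfb4 was lower, with -0.55, -0.70 and -0.45 (FDR = 9.45e-04, 4.13e-05 and 0.00186). At 6 h Hk1 was lower in B-20 (-2.33, FDR = 0.00235), with 3.64 and 1.63 CPM against 16 and 11.2 CPM in A-59. At 18 h Pfkm (0.72, FDR = 0.00528) and Ldhb (0.83, FDR = 1.60e-04) were higher in B-20. Without 1 library the calls of Hk1 (A-59 replicate 1 or B-20 replicate 2 left out, FDR = 0.0543 and 0.0208) and Pfkm (B-20 replicate 1 or A-59 replicate 2, FDR = 0.0914 and 0.0714) were lost, as were those of Slc16a1 at 0 h and Pfkfb4 at 0 and 18 h without A-59 replicate 1 or either B-20 library (FDR between 0.0119 and 0.12). With 1 clone of each kind, whether these differences belong to the edit or to the clone was not tested.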

How the results depend on the processing

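With 2 libraries a group, the number of members called depended on how the spread was estimated, while each of the 54 calls of a member kept its direction under every alternative run. Counts of members called are given where they moved by over 1.5 times from the reported count, which stands in the Results. The cause was not tested. In this section, a count without a share of all genes beside it describes the setting and is not a result about the members. With DESeq2, 5 were called in A-59 against parental cells at 18 h (11.1% of all genes). It called 1 each for the difference of response of A-59 at 6 h (2.08%) and of B-20 at 18 h (1.05%). When no filter on low counts was applied, there were 3 for A-59 at 6 h, 7 for B-20 at 18 h, 6 for A-59 against parental cells at 18 h, and 1 and 4 for those differences of response. With only the libraries compared there were 13 and 22 for parental cells at 6 h and 18 h (14.1% and 44.3% of all genes). There were 0 and 7 for A-59 (0.348% and 35.6%). For B-20 against parental cells there were 4, 12 and 4 at 0, 6 and 18 h (12.2%, 22.9% and 12.2%). At an FDR under 0.05 there were 4 and 8 for A-59 at 6 h and 18 h, 8 for B-20 at 18 h, 6 for A-59 against parental cells at 18 h, 5 for B-20 against them at 6 h, and 1 each for the differences of response of A-59 at 6 h and B-20 at 18 h. DEGs numbered 0 at 6 h in parental cells and A-59, 2 at 18 h in A-59 and 1 for B-20, 1 and 2 in A-59 and 1 and 1 for B-20 against parental cells (0 and 6 h, 0 and 18 h), and 2, 3 and 2 between the clones. The GC correction gave 2 for parental cells at 6 h, 5 for B-20 at 18 h, 4 for B-20 against parental cells at 6 h and 1 for the B-20 difference of response at 18 h. DESeq2 size factors and the minimum of 10 counts in every library moved no count that far. Of 10 isoform ratios in untreated parental cells, 7 moved by more than 1 SD with exonic length, such as Hk2 to Hk1 at 29.9.

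Replicate numbers were not stated to mark shared experiments. The differences between replicates 1 and 2 correlated at -0.05 to 0.43 over 36 pairs of groups, above 0.1 in 19 of them, and at 0.10 to 0.43 within a genotype. With a replicate block 12 members were called in parental cells at 18 h, 2 and 8 in A-59 at 6 h and 18 h, 5 in B-20 at 18 h, 5 in A-59 against parental cells at 18 h and 4 in B-20 against them at 6 h. With the GC correction and the block there were 2 in parental cells and 3 in A-59 at 6 h, 7 in A-59 and 6 for B-20 at 18 h, 5 in A-59 and 11 for B-20 against parental cells at 18 h, 4 and 5 in B-20 against them at 0 and 6 h, and 1 each for the differences of response of A-59 at 6 h and B-20 at 18 h. A replicate block within each genotype was chosen after seeing the data. It gave 5 and 18 members in parental cells (11.8% and 38.7% of all genes), 7 and 17 in A-59 (13.1% and 39.4%) at 6 h and 18 h, and, at the later time, 13 for B-20 (30.9%), 4 lower and 9 higher. It gave 5 and 12 in A-59 against parental cells at 0 and 18 h (14.2% and 15.2%). For B-20 against parental cells it gave 9 and 10 at 0 and 6 h (15.7% and 20.4%). At 18 h it gave 21 for B-20 against parental cells, 15 higher and 6 lower, where 1370 genes were higher and 1700 lower. Between the clones it gave 11, 14 and 10 (14.5%, 27.7% and 23.4%). For the differences of response it gave 1 and 1 in A-59 (2.45% and 0.202%) and 10 for B-20 at 18 h (1.58%), all 10 higher.

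With 1 library left out, the counts were 0 to 1 and 4 to 6 in parental cells at 6 h and 18 h, 0 to 1 and 4 to 5 in A-59, and 0 and 2 to 8 in B-20. Against parental cells they were 1 to 2, 4 to 6 and 2 to 3 in A-59 at 0, 6 and 18 h and 1 to 2, 2 and 3 to 11 in B-20. They were 0 to 3 for the A-59 difference of response at 6 h and 0 for the other 3, and 2 to 4, 4 to 7 and 5 to 7 between the clones. The highest counts for B-20 at 18 h (8, and 11 against parental cells) came without its replicate 2, and the 3 for the A-59 difference at 6 h without A-59 replicate 2 at 6 h. The single call at 6 h was lost without parental replicate 2 at 0 h, and that of A-59 without either of its 0 h libraries or replicate 1 at 6 h. At 0 h 1 call was left in A-59 against parental cells without replicate 1 of either group, 1 in B-20 without either parental library or B-20 replicate 2, and 2 between the clones without A-59 replicate 1 or either B-20 library. A lone library was assumed to vary like the other groups. Depth limits Slc16a3, with 17 to 46 counts, and Aldoc in B-20, the lowest at 14.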
